A study of Oryza sativa with 12 samples.

Results

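Transcripts that seedlings carry in quantity at 29 °C and nearly lose at 45 °C were collected from a rice RNA-seq table of 42004 loci. Loci were selected on their mean FPKM, a fragment count corrected for transcript length and sequencing depth. A locus was included when this mean was 10 or more in both control groups at 29 °C, and when its mean at 45 °C was 10% or less of the control mean in each genotype. Of 8721 loci at the control minimum in both genotypes, 52 met the rule, which is 0.596% of them. The values that chose these loci are the group means of the heat comparison, so their heat losses are given as a description, without a test.

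The libraries fell into 4 groups of 3, all from seedlings labelled as whole plants and grown in nutrient solution at 29 °C. Heat-treated seedlings of a line titled as a double mutant are written dm_45C, and the untreated seedlings of that line dm_29C. The line is taken here as a knockout of GRP3 and GRP162 in the ZH11 background. Its genotype labels name GRP162, GRP163 or GRP164 by replicate, while the titles give 1 line. Heat-treated seedlings of the wild type ZH11, a japonica cultivar, are written WT_45C, and untreated ones WT_29C. Heat was applied to 8-day-old seedlings. The characteristics give 18 h of heat and the treatment protocol gives 42 h, and the sources used here do not settle which holds. Whether the mutant line was 1 clone is not stated, nor is it stated that replicates came from separately grown seedlings. The p-values thus refer to the spread between these libraries, which may be technical.

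GRP3 and GRP162 encode glycine-rich RNA-binding proteins, and their values set a limit on the genotype comparison. GRP162 (LOC_Os12g43600) had 12466, 746 and 699 FPKM in dm_45C, against 2368, 1605 and 3720 FPKM in WT_45C. At 29 °C it had 3288, 218 and 265 FPKM in dm_29C, against 1121, 1002 and 1033 FPKM in WT_29C. Both libraries labelled double mutant replicate 1 thus lay above every wild type library of their temperature, and the other 4 lay below all of them. GRP3 (LOC_Os03g46770) stood between 10888 and 17604 FPKM in dm_45C, against 14427 to 16321 FPKM in WT_45C. At 29 °C it ranged over 1086 to 4340 FPKM in dm_29C, against 3879 to 5489 FPKM in WT_29C. The mutant libraries are therefore called by their label below, and counts of heat calls in gene lists in that line are also given without both its replicate 1 libraries. Of all loci tested, 1699 fell and 2137 rose in that line without them, against 3327 and 3102 with them. That setting also leaves fewer libraries in the line, and the part of this in the lost calls was not tested. Of 10 root markers 2 passed the filter on low values, and RCc3, CASP1, NRT2.1 and TOM1 were listed at 0 in every library, while all 8 leaf markers passed it. Summed leaf marker FPKM was 2788 to 6724 in dm_45C, against 7587 to 10092 in dm_29C, and 3544 to 5301 in WT_45C, against 5475 to 13317 in WT_29C. Summed root marker FPKM was 12.9 to 48.5 in dm_45C, against 18.6 to 28.1 in dm_29C, and 26.8 to 63.3 in WT_45C, against 14.6 to 28.2 in WT_29C. The part of these markers in the losses described here was not tested. In RNA from whole seedlings, fewer cells of a type and less RNA per cell cannot be told apart.

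Severe heat changes a plant transcriptome in both directions. Heat shock factors switch on chaperone genes, while transcripts for growth, hormone signalling and transport often decline, through less transcription or faster decay of the RNA. A steady-state level, as measured here, is the balance of both processes. Rice seedlings at the age used here are assimilating nitrogen, moving sugar from leaves to growing tissue and responding to cytokinin, auxin and ethylene, and known members of each of these systems were among the 52 loci.

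The median locus of the 52 kept 5.49% of its control level in dm_45C and 4.64% in WT_45C. In the libraries labelled double mutant the level left ran between 0.251% (LOC_Os02g45860) and 9.96% (LOC_Os08g07490), or a loss of 10.04 to 398-fold with a median of 18.2-fold. In the wild type it ran between 0.171% (LOC_Os10g36500) and 9.96% (LOC_Os06g04920), or a loss of 10.05 to 583-fold with a median of 21.5-fold. Of the 52 loci, 23 kept under 5% in dm_45C, 28 did so in WT_45C, and 18 did so in both. Only 4 kept under 2% in both genotypes. The other 8669 loci at the control minimum had medians of 79.6 to 99.6% of their control mean in the 6 heat libraries, so the 52 loci sat at the low end of a distribution centred much nearer to the control level.

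**Figure D1:**
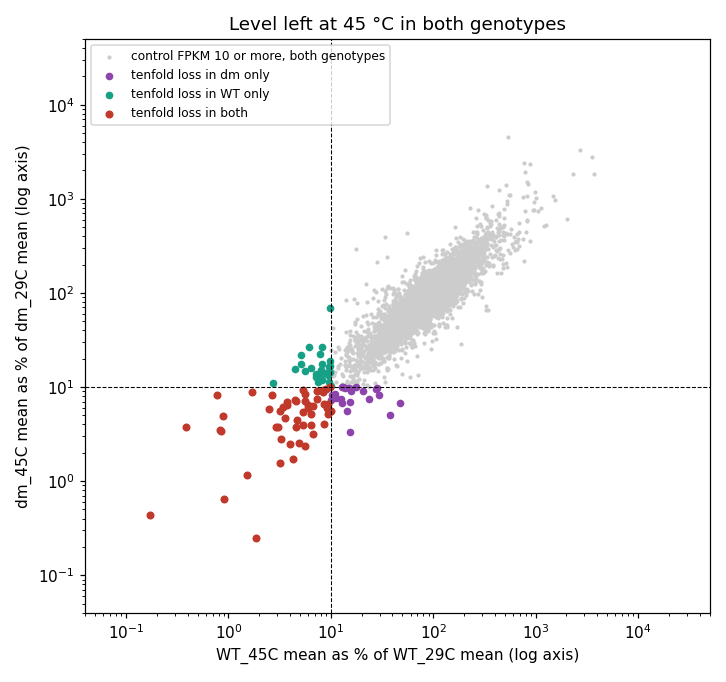
Level left at 45 °C as a percentage of the control mean, with the wild type across and the libraries labelled double mutant up the page (both log axes), for the 8721 loci at the control minimum, 1 point each. The 52 loci at or under 10% in both lie in the lower left corner, with 22 loci past the limit only in the libraries labelled double mutant and 26 only in the wild type beside them.

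The libraries of the 2 temperatures did not overlap at any of the 52 loci: every heat library was lower than every control library in both genotypes. The same held for 16.2% of all 20305 loci that passed a filter of 1 FPKM in at least 3 libraries, and since the rule used these values, nothing is read from the difference. In a stricter view, each heat library was under 10% of each control library at 16 loci in the libraries labelled double mutant, at 23 in the wild type and at 10 in both.

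The share of loci that met the rule rose with the control level. The rule itself uses that level, so these shares are given as a description. Of the 8721 loci, those with a mean of 10 to 30 FPKM over both control groups included 16 of the 52, or 0.303% of that band. The share was 0.702% (19 loci) between 30 and 100 FPKM, 1.88% (13 loci) between 100 and 1000 FPKM, and 7.69% (4 loci) at 1000 FPKM or more. That highest band also happened to hold 52 of the 8721 loci, which are not the same 52 as those that met the rule. Summed over the 52 loci, FPKM made up 0.0742 to 0.302% of each dm_45C library, against 3.41 to 4.69% of each dm_29C library. In the wild type the sum was 0.112 to 0.311% of each WT_45C library, against 2.88 to 4.40% of each WT_29C library. The 4 loci over 1000 FPKM made 77.1 to 87.0% of that sum in every library.

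The most abundant of the 52 was LOC_Os12g33120. It had 455, 1017 and 245 FPKM in dm_45C, against 7655, 9266 and 9163 FPKM in dm_29C. It had 974, 1024 and 357 FPKM in WT_45C, against 7572, 10228 and 7495 FPKM in WT_29C. Even after the loss it still stood at 572 ± 399 FPKM in dm_45C and 785 ± 371 FPKM in WT_45C (SD, n = 3 each). LOC_Os01g45470 lost more of a similar level. Its values were 117, 246 and 58.7 FPKM in dm_45C, against 5999.7, 9538 and 9078 FPKM in dm_29C. In the wild type they were 188, 406 and 83.8 FPKM in WT_45C, against 4595, 7771 and 3463 FPKM in WT_29C. That left 1.71% in dm_45C and 4.28% in WT_45C, or 1.07% and 2.58% without replicate 2 of the heat group, and every heat library was far under the lowest control library. LOC_Os12g33120 kept 6.58% in dm_45C, or 4.02% without replicate 2, and 9.31% in WT_45C. The level left in WT_45C was 11.8% without its replicate 3 and 10.4% without WT_29C replicate 2, both outside the limit of the rule.

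LOC_Os01g73250 and LOC_Os12g33150 completed the 4 loci over 1000 FPKM. LOC_Os01g73250 had 94.2, 99.2 and 20.1 FPKM in dm_45C, against 1535, 2644 and 1557 FPKM in dm_29C, and 86.8, 95.0 and 34.2 FPKM in WT_45C, against 1471, 1875 and 1334 FPKM in WT_29C. LOC_Os12g33150 had 14.8, 55.9 and 8.19 FPKM in dm_45C, against 908, 1858 and 2324 FPKM in dm_29C, and 40.7, 87.2 and 12.6 FPKM in WT_45C, against 1098, 2029 and 1251 FPKM in WT_29C. Replicate 3 was the lowest heat library at both loci in both genotypes. LOC_Os12g33150 kept 1.55% in dm_45C and 3.21% in WT_45C, or 0.676% and 1.83% without replicate 2 of the heat group, less than LOC_Os12g33120, which lies 3 loci away on chromosome 12.

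The next 6 loci by control level stood between 178 and 343 FPKM, as the mean of both control groups. LOC_Os02g03960 kept 5.92% in dm_45C and 9.08% in WT_45C, LOC_Os04g55710 kept 2.48% and 4.03%, and LOC_Os02g12480 kept 6.03% and 5.99%. Without dm_45C replicate 2 the first kept 3.63% and the second 1.45% in that group. In WT_45C the first kept 10.8% without replicate 3 and 10.3% without WT_29C replicate 2, both outside the limit of the rule. LOC_Os01g68269 kept 6.58% in dm_45C and 8.53% in WT_45C, and LOC_Os06g04920 kept 5.62% and 9.96%. The last of the 6 was ACO1, described with the named genes. LOC_Os06g04920 had an uneven control level, at 91.9, 389 and 299 FPKM in dm_29C and 111, 302 and 42.0 FPKM in WT_29C. Replicate 2 was the highest library in both control groups there, and the 2 genotypes overlapped. Without WT_29C replicate 2 the level left in WT_45C was 19.7%, outside the limit of the rule.

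**Figure D2:**
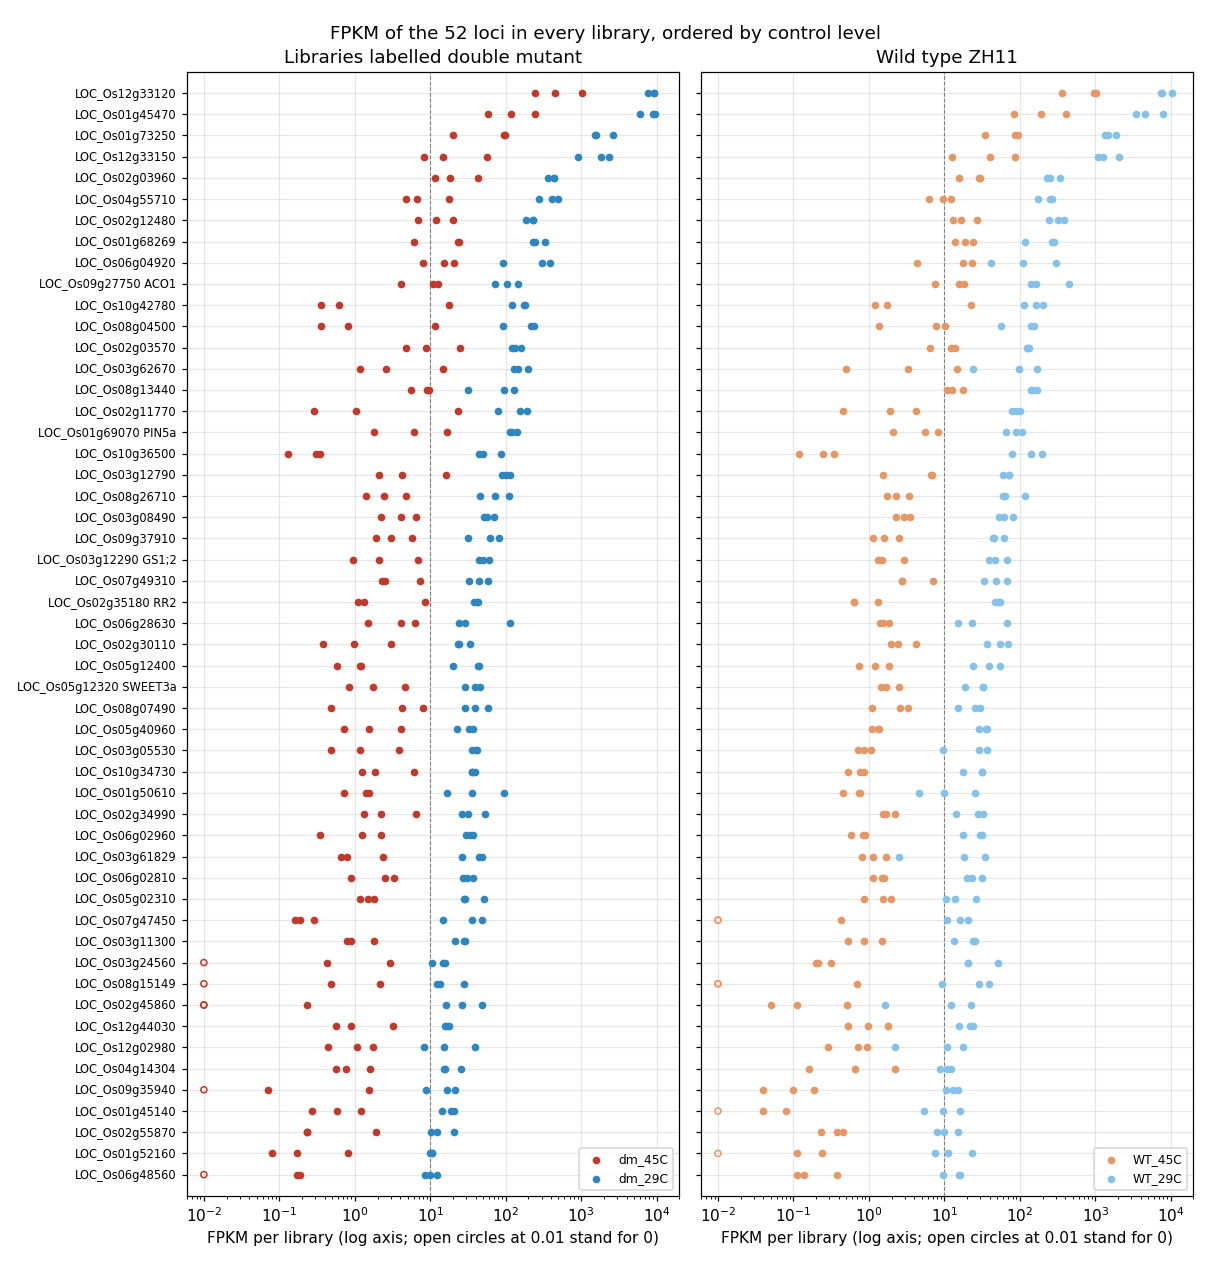
FPKM of the 52 loci in each of the 12 libraries (log axis, open circles at 0.01 stand for a listed 0), with the libraries labelled double mutant at left, the wild type at right and loci ordered by control level. Heat libraries and control libraries do not overlap in any line of either panel, and control levels span 12 to 8563 FPKM.

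The deepest loss, ranked on log2(mean FPKM + 1) over both genotypes, was at LOC_Os10g36500. It had 0.35, 0.13 and 0.31 FPKM in dm_45C, against 87.7, 44.3 and 50.6 FPKM in dm_29C. In the wild type it had 0.12, 0.34 and 0.25 FPKM in WT_45C, against 141, 78.1 and 195 FPKM in WT_29C. All 6 heat libraries were under 1 FPKM, and no library stood apart from its group. The geometric mean loss was 6.21 on that log2 scale, followed by 5.45 at LOC_Os12g33150 and 5.20 at LOC_Os01g45470.

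LOC_Os07g47450 was the other locus that kept under 1% in both genotypes. It had 0.16, 0.29 and 0.19 FPKM in dm_45C, against 35.8, 48.5 and 14.8 FPKM in dm_29C. In WT_45C it was listed at 0 in 2 libraries and had 0.43 FPKM in the other, against 15.9, 20.4 and 10.9 FPKM in WT_29C. At levels of this kind the number of fragments behind a value is unknown, and a listed 0 is not a measured absence. The same limit applies to LOC_Os02g45860, whose loss of 398-fold in the libraries labelled double mutant rests on 1 library at 0.23 FPKM and 2 listed at 0 in dm_45C, against 48.8, 16.4 and 26.3 FPKM in dm_29C.

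LOC_Os08g26710 was also among the 10 deepest. It had 1.41, 2.43 and 4.74 FPKM in dm_45C, against 109, 72.2 and 45.9 FPKM in dm_29C. It had 3.35, 2.29 and 1.72 FPKM in WT_45C, against 59.9, 63.2 and 117 FPKM in WT_29C. Both genotypes were thus at a few FPKM in the heat, with no heat library near any control library.

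At 3 other loci of the 10 deepest, 1 dm_45C library was more than 10 times either of the others. LOC_Os10g42780 had 0.36, 17.9 and 0.62 FPKM in dm_45C, against 182, 175 and 120.4 FPKM in dm_29C, and 1.76, 22.5 and 1.19 FPKM in WT_45C, against 200.5, 162 and 113 FPKM in WT_29C. LOC_Os02g11770 had 1.03, 23.5 and 0.29 FPKM in dm_45C, against 155, 190.0 and 78.4 FPKM in dm_29C, and 0.46, 1.93 and 4.27 FPKM in WT_45C, against 88.5, 77.8 and 99.5 FPKM in WT_29C. LOC_Os08g04500 had 0.81, 11.7 and 0.36 FPKM in dm_45C, against 216, 236 and 92.9 FPKM in dm_29C, and 1.36, 7.80 and 10.3 FPKM in WT_45C, against 152, 140.5 and 56.9 FPKM in WT_29C. Replicate 2 was the high library of dm_45C at all 3 of them. Without it the level left in dm_45C was 0.308% at LOC_Os10g42780, 0.467% at LOC_Os02g11770 and 0.322% at LOC_Os08g04500.

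That library was high across the list. Replicate 2 of dm_45C was the highest of its group at 41 of the 52 loci, or 78.8%. It was also the highest at 81.4% of 853 other loci at the control minimum that were below 50% of control in both genotypes, and at 52.2% of all other loci at the control minimum. Its median level over the 52 loci was 9.65% of the control mean, against 3.42% and 2.17% in replicates 1 and 3. The WT_45C libraries had medians of 4.12, 5.10 and 2.92%. Without replicate 2 the dm_45C median was 3.12%, 30 of the 52 loci kept less by a factor over 1.5, and 67 loci met the rule, 51 of them among the 52. Without replicate 2 of WT_45C the median there was 4.04%, and 10 of the 52 kept less and 1 kept more by a factor over 1.5.

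**Figure D3:**
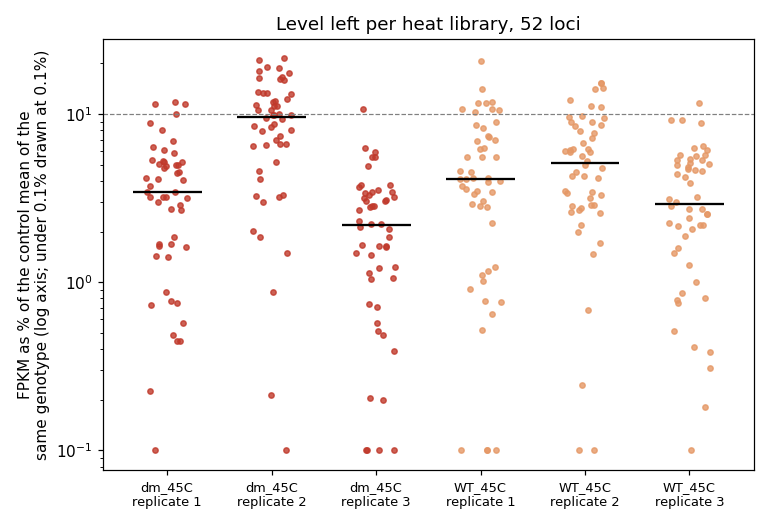
FPKM of each of the 52 loci in a heat library as a percentage of the control mean of the same genotype (log axis, values under 0.1% drawn at 0.1%), 1 column for each of the 6 heat libraries, with black bars at the medians. Replicate 2 of dm_45C has the highest median, 9.65%, and 22 of its loci are over 10%, against 1 to 9 in the other heat libraries.

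Spread between replicates was wide at these loci. The coefficient of variation had a median of 73.8% over the 52 loci in dm_45C, against 25.5% in dm_29C, and of 45.6% in WT_45C, against 30.8% in WT_29C. For the other 8669 loci at the control minimum these medians were 18.0, 12.8, 15.6 and 18.4% in the same order. The 52 loci thus had a wider spread than the rest in the control libraries as well, where their levels were high. The rule chose loci on the means of these same libraries, and an outlying high control value helps a locus to meet it. The part of this choice in the wider spread was not tested, so the spread is given as a description.

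Of the 52 loci, 5 were given a name from a published locus assignment, checked only for a RefSeq symbol on the same chromosome. The other 47 are reported by locus number only, since no annotation of locus numbers was used, and their products may be known elsewhere. The named ones are a cytokinin response regulator, a glutamine synthetase, a sugar transporter, an auxin transporter and an ethylene biosynthesis enzyme.

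RR2 (LOC_Os02g35180, chromosome 2) is a type-A response regulator, a small protein that cytokinin induces and that dampens cytokinin signalling. It had 1.10, 8.49 and 1.31 FPKM in dm_45C, against 41.3, 37.9 and 42.5 FPKM in dm_29C. It had 0.63, 1.33 and 0.64 FPKM in WT_45C, against 47.4, 51.4 and 53.9 FPKM in WT_29C. Control libraries of each genotype were close together, and replicate 2 was the high one in both heat groups. The level left was 8.95% in dm_45C, or 2.97% without replicate 2, and 1.70% in WT_45C. In dm_45C it was 12.1% without replicate 1 and 11.8% without replicate 3, both outside the limit of the rule.

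Other type-A response regulators were less uniform. Of 7 others tested, 4 fell in the heat and 1 rose in the libraries labelled double mutant, and 2 fell and 1 rose in the wild type, in limma fits with Benjamini-Hochberg adjustment over all 20305 loci tested. Over all those loci 16.4% fell and 15.3% rose in the libraries labelled double mutant, and 15.8% fell and 13.3% rose in the wild type. RR4 fell by 2.55 in the libraries labelled double mutant (limma adjusted p = 0.00682) and by 3.28 in the wild type (limma adjusted p = 0.00177), both as differences of log2(FPKM + 1). RR9 fell by 1.75 (limma adjusted p = 0.0102) and by 2.05 (limma adjusted p = 0.00459) on that scale, but it has a near-identical copy, RR10, and reads may have been split between them. Without both double mutant replicate 1 libraries 1 fell and 1 rose in that line, and the lost calls included RR4 (limma adjusted p = 0.0588) and RR9 (limma adjusted p = 0.0806). RR11 rose in both genotypes, by 1.37 in the libraries labelled double mutant and by 1.95 in the wild type, so the family did not move one way.

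GS1;2 (LOC_Os03g12290, chromosome 3) is a cytosolic glutamine synthetase that builds ammonium into glutamine. It had 2.12, 6.84 and 0.96 FPKM in dm_45C, against 50.6, 60.6 and 44.2 FPKM in dm_29C. It had 1.5, 2.89 and 1.31 FPKM in WT_45C, against 46.9, 68.4 and 38.8 FPKM in WT_29C. Replicate 2 was the highest library in all 4 groups, and the level left was 6.38% in dm_45C, or 2.97% without replicate 2, and 3.70% in WT_45C.

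The related synthetases kept most of their RNA. GS1;1, the other cytosolic form tested, changed by -0.65 in the libraries labelled double mutant (limma adjusted p = 0.0606) and by -0.37 in the wild type (limma adjusted p = 0.280). The plastid form GS2 had 549 ± 203 FPKM in dm_45C, against 736 ± 86.0 FPKM in dm_29C, and 745 ± 103 FPKM in WT_45C, against 974 ± 287 FPKM in WT_29C (SD, n = 3 each). Neither passed the test in either genotype. Of 8 further nitrogen assimilation genes tested, these 2 included, 3 rose and 1 fell in the libraries labelled double mutant, and 3 rose and 2 fell in the wild type. Nitrite reductase NIR rose by 1.76 in the libraries labelled double mutant and by 1.65 in the wild type on the log2 scale. The asparagine synthetase ASN1 rose by 2.34 and 3.86, and NADH-GOGAT2 by 2.76 and 1.48. The call of ASN1 in the libraries labelled double mutant was lost in 6 of 21 other settings, with a highest limma adjusted p of 0.135 without both replicate 1 libraries, and that of NADH-GOGAT2 in the wild type in 12 of 20, with a highest limma adjusted p of 0.173 without a filter. Leaving out replicate 1 or 3 of dm_45C, or replicate 1 or 2 of dm_29C, ended that call of ASN1. The ferredoxin-dependent glutamate synthase Fd-GOGAT, which takes glutamine onward in the leaf, fell by 1.36 and 1.45, the first no longer passing without both replicate 1 libraries (limma adjusted p = 0.0925).

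SWEET3a (LOC_Os05g12320, chromosome 5) belongs to the SWEET sugar transporters, which let sugars leave cells down their gradient. It had 1.73, 4.66 and 0.85 FPKM in dm_45C, against 45.4, 39.8 and 29.1 FPKM in dm_29C. It had 2.51, 1.66 and 1.43 FPKM in WT_45C, against 32.2, 32.7 and 18.8 FPKM in WT_29C. The level left was 6.33% in dm_45C, or 3.39% without replicate 2, and 6.69% in WT_45C.

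Of 10 further SWEET genes tested, 3 fell and 1 rose in the libraries labelled double mutant, and 4 fell and 1 rose in the wild type. Without both double mutant replicate 1 libraries 2 fell and 1 rose in that line, the lost call being that of SWEET1A (limma adjusted p = 0.0588). SWEET14 had 3.30, 6.31 and 1.91 FPKM in dm_45C, against 15.4, 30.2 and 16.6 FPKM in dm_29C, and 4.63, 5.67 and 5.74 FPKM in WT_45C, against 18.3, 21.9 and 19.0 FPKM in WT_29C. It fell by 2.21 in the libraries labelled double mutant (limma adjusted p = 3.01e-04) and by 1.71 in the wild type (limma adjusted p = 0.00177), short of the 10% limit. SWEET15 rose by 1.67 and 1.45 on the log2 scale, and its wild type call was lost without a filter, without WT_45C replicate 2 and without WT_29C replicate 1 (limma adjusted p up to 0.0786). The sucrose transporter SUT1, which loads sucrose into the phloem, fell by 2.90 (limma adjusted p = 3.79e-05) and by 2.39 (limma adjusted p = 1.45e-04).

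PIN5a (LOC_Os01g69070, chromosome 1) belongs to the PIN family of auxin transporters. It had 6.01, 16.6 and 1.81 FPKM in dm_45C, against 119.6, 142 and 115 FPKM in dm_29C. It had 5.48, 8.25 and 2.11 FPKM in WT_45C, against 65.7, 107 and 89.8 FPKM in WT_29C. Replicate 2 was again the highest in all 4 groups, and no heat library came near a control library. The level left was 6.5% in dm_45C, or 3.12% without replicate 2, and 6.04% in WT_45C. PIN1A, the 1 other PIN gene that passed the filter on low values, changed by -0.40 (limma adjusted p = 0.290) and 0.15 (limma adjusted p = 0.724) and did not pass.

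ACO1 (LOC_Os09g27750, chromosome 9) is an ACC oxidase, the enzyme of the last step of ethylene synthesis. It had 12.7, 10.7 and 4.05 FPKM in dm_45C, against 147, 103 and 71.9 FPKM in dm_29C. It had 18.4, 15.4 and 7.43 FPKM in WT_45C, against 162, 139 and 443 FPKM in WT_29C. The highest control value, in WT_29C replicate 3, was far above the other 5, and the level left was 8.52% in dm_45C and 5.54% in WT_45C, or 9.13% in the wild type without that library. In dm_45C the level left was 10.9% without replicate 3 and 10.5% without dm_29C replicate 1, both outside the limit of the rule.

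Of 4 other ACC oxidase genes tested, 2 fell in each genotype and none rose. ACO6 fell in both, by 1.92 in the libraries labelled double mutant (limma adjusted p = 6.06e-04) and by 1.67 in the wild type (limma adjusted p = 0.00164). It had 4.22 ± 0.730 FPKM in dm_45C, against 19.1 ± 5.52 FPKM in dm_29C, and 3.84 ± 1.93 FPKM in WT_45C, against 14 ± 4.44 FPKM in WT_29C (SD, n = 3 each). ACO3 fell by 0.94 in the wild type. ACO5 fell by 1.17 in the libraries labelled double mutant, and that call was lost without a filter, without replicate 1 or 2 of dm_45C or of dm_29C, and without both replicate 1 libraries (limma adjusted p up to 0.232), which left 1 in that line. Whether the genotypes differed in these responses is covered by the test of the difference of the heat responses, where no ACC oxidase passed.

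**Figure D4:**
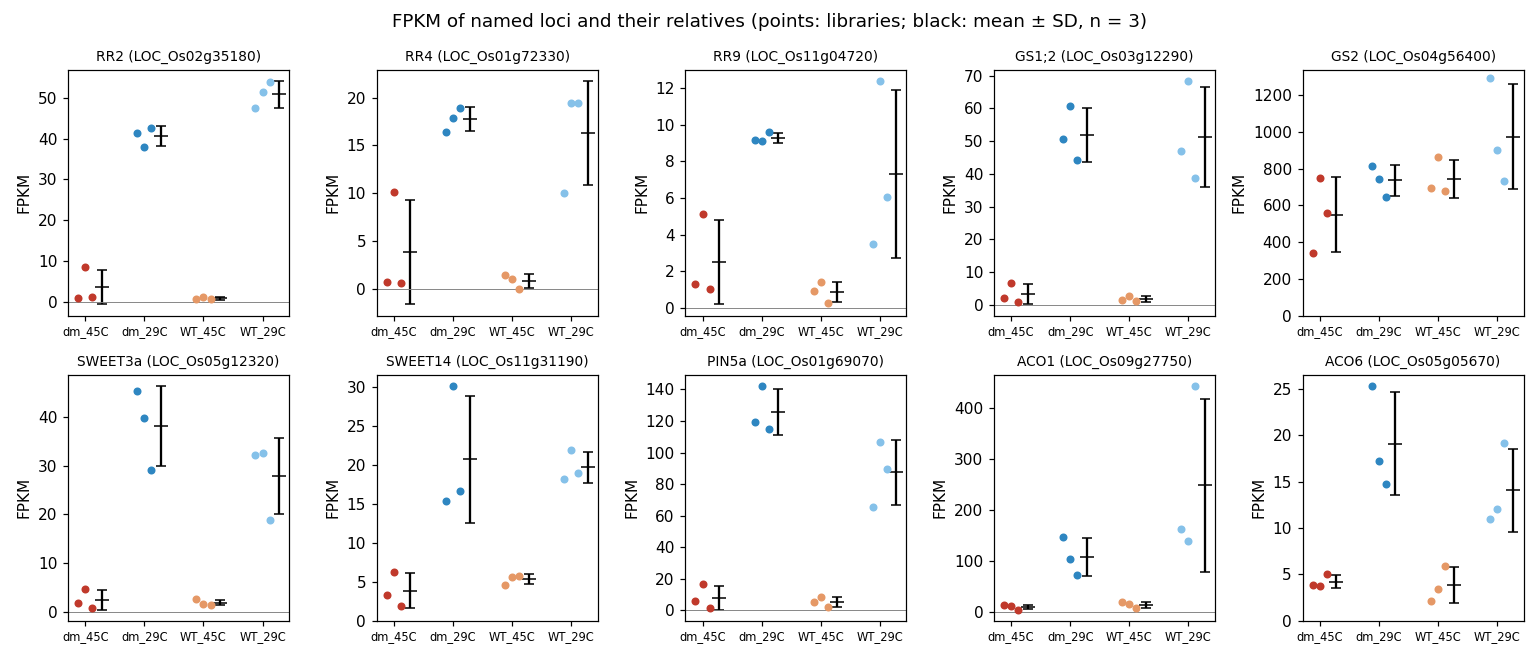
FPKM of the 5 named loci and of 5 relatives (RR4 and RR9 beside RR2, GS2 beside GS1;2, SWEET14 beside SWEET3a, ACO6 beside ACO1), with 1 point per library, black bars for mean ± SD (n = 3) and groups in the order dm_45C, dm_29C, WT_45C, WT_29C. The named loci and RR4 nearly reach 0 in most heat libraries, while the GS2 groups overlap, at 342 to 863 FPKM in the heat and 646 to 1291 FPKM in the controls.

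The 13 functional lists drawn up for seedlings held 153 distinct loci, of which 39 were at the control minimum, and GS1;2 was the 1 locus of the 52 in them. Among listed loci that are not among the 52, the heat calls went both ways. Of 8 cuticular wax genes tested 6 rose in the libraries labelled double mutant and 7 in the wild type, with none falling. Of 12 aquaporins, which conduct water, 2 rose and 3 fell in the libraries labelled double mutant, and 3 rose and 2 fell in the wild type. Of 6 sugar transport and invertase genes 2 rose and 2 fell in the libraries labelled double mutant, and 1 rose and 3 fell in the wild type. Of 5 DNA replication and cell cycle genes 2 fell in each genotype, and of 8 leaf markers 2 rose and 3 fell in each. Of 13 cellulose and lignin genes 3 rose and 1 fell in the libraries labelled double mutant, and 3 rose in the wild type. The lists of 3 diterpenoid phytoalexin, 5 expansin, 6 iron and zinc, 9 nutrient uptake, 4 pathogenesis-related and 2 root marker genes tested had at most 2 calls in either direction in either genotype. Over all 20305 loci tested, 15.3% rose and 16.4% fell in the libraries labelled double mutant, and 13.3% rose and 15.8% fell in the wild type. Without both double mutant replicate 1 libraries the calls in that line were fewer: 3 cuticular wax genes rose, 1 aquaporin rose and 2 fell, and 1 sugar transport or invertase gene rose and 2 fell. Likewise 1 DNA replication and cell cycle gene fell, 1 leaf marker rose and none fell, and the cellulose and lignin counts did not change. The smaller lists then had at most 1 call in either direction there.

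The 52 loci were spread over the genome. They lay on 11 of the 12 chromosomes, with 9 on chromosome 2, 8 on chromosome 3, 7 on chromosome 1, 5 each on chromosomes 6 and 8, 4 each on chromosomes 5 and 12, 3 each on chromosomes 9 and 10, and 2 each on chromosomes 4 and 7. As a share of the loci at the control minimum this was between 0.289% on chromosome 4 and 0.883% on chromosome 12, and 0 of 369 on chromosome 11. Locus numbers follow the order along a chromosome, and distances are given here as steps between loci of the table, since no coordinates were used.

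Most of the 52 loci stood alone. No group of 3 or more lay within 10 loci of each other, 46 had no other of the 52 within that distance, and the other 6 formed 3 pairs. Among 262 loci at the control minimum within 10 loci of one of the 52, 6 were themselves among the 52, or 2.29%, against 0.596% over all 8721. The remaining 256 had a median of 89.3% left in dm_45C and 89.7% in WT_45C, against 92.9% and 90.3% over all 8669 loci outside the list. Of the 256, 12.9% were below 50% in both genotypes, against 9.84% of the 8669. Directly beside the 52 lay 66 tested loci outside the list, of which 11 fell in both genotypes, or 16.7%, and 6 rose in both, or 9.09%. Over all 20305 loci tested, 11.4% fell and 9.71% rose in both. Of all 104 loci directly beside the 52, tested or not, 10 were lower by more than 1 on the scale of log2(mean FPKM + 1) in both genotypes, or 9.62%, against 3.40% of all 42004 loci. These sets are not alike in level. Of the 42004, 13263 were listed at 0 in every library and could not fall. At the control minimum were 35 of the 104, against 8721 of the 42004.

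The pair on chromosome 12 holds much of the lost RNA. LOC_Os12g33120 and LOC_Os12g33150, described above, are 3 loci apart. Of the 2 loci between them, LOC_Os12g33140 was listed at 0 in every library, and LOC_Os12g33130 had 0.120 ± 0.208 FPKM in dm_45C, against 3.26 ± 4.05 FPKM in dm_29C, and 0.810 ± 0.728 FPKM in WT_45C, against 2.50 ± 1.46 FPKM in WT_29C (SD, n = 3 each). LOC_Os12g33165, 2 loci beyond the pair, went the other way: it had 20.9 ± 6.09 FPKM in dm_45C, against 6.64 ± 2.08 FPKM in dm_29C, and 15.9 ± 0.992 FPKM in WT_45C, against 5.15 ± 0.686 FPKM in WT_29C. Its rise passed in both genotypes (limma adjusted p = 5.37e-04 with the mutant label and 7.46e-04 in the wild type). Of 6 tested loci outside the list in a window of 10 around the pair, 2 fell in both genotypes. Over all loci tested 11.4% did. LOC_Os12g33100 fell by 0.95 with the mutant label and 0.76 in the wild type on the log2 scale, LOC_Os12g33180 by 0.81 and 0.86. The wild type call of the first was lost without WT_45C replicate 3 (limma adjusted p = 0.0525). LOC_Os12g33130 fell only with the mutant label, and that call was lost in 13 of 20 other settings.

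The pair on chromosome 6 sat in a longer run of lowered loci. LOC_Os06g02810 had 2.55, 3.34 and 0.90 FPKM in dm_45C, against 36.7, 27.4 and 30.7 FPKM in dm_29C, and 1.13, 1.48 and 1.59 FPKM in WT_45C, against 19.7, 23.0 and 31.8 FPKM in WT_29C. LOC_Os06g02960, 9 loci on, had 1.26, 2.21 and 0.35 FPKM in dm_45C, against 29.6, 33.8 and 37.4 FPKM in dm_29C, and 0.88, 0.84 and 0.58 FPKM in WT_45C, against 17.5, 32.0 and 29.9 FPKM in WT_29C. Every heat library of both loci was under 4 FPKM and every control library over 17 FPKM.

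Between LOC_Os06g02660 and LOC_Os06g03099 lies a window of 30 loci around this pair that was chosen after its values were seen. In it 7 loci were at the control minimum, and all 7 were below 50% of control in both genotypes. The pair itself makes 2 of the 7, and the rule fixed their loss in advance. Over all 8721 loci at the control minimum 10.4% were below 50% in both genotypes. Of 11 tested loci in the window outside the list, 10 fell in the libraries labelled double mutant and 8 in the wild type, and the same 8 fell in both. Over all loci tested 16.4% fell in the libraries labelled double mutant, 15.8% in the wild type and 11.4% in both. The 2 that passed only with the mutant label were LOC_Os06g02670 (limma adjusted p = 0.0338) and LOC_Os06g02780 (limma adjusted p = 0.0280). The call of LOC_Os06g02670 was lost in 7 of 20 other settings, among them those without dm_45C replicate 2 or 3 or dm_29C replicate 1 or 3 (limma adjusted p up to 0.140). The call of LOC_Os06g02780 was lost in 6 of 20, among them those without dm_45C replicate 1 or 3 or dm_29C replicate 1 (limma adjusted p up to 0.232, without both replicate 1 libraries, when 9 of the 11 fell in that line). LOC_Os06g02930 had 5.60 ± 3.61 FPKM in dm_45C, against 32.9 ± 7.70 FPKM in dm_29C, and 3.71 ± 0.640 FPKM in WT_45C, against 21.4 ± 2.85 FPKM in WT_29C (SD, n = 3 each). LOC_Os06g02940 had 2.59 ± 1.36 FPKM in dm_45C, against 27.1 ± 2.89 FPKM in dm_29C, and 4.18 ± 1.3 FPKM in WT_45C, against 15.0 ± 5.52 FPKM in WT_29C. The level left there was 9.54% in dm_45C and 27.9% in WT_45C, so it met the limit of the rule in 1 genotype. LOC_Os06g02800 and LOC_Os06g02830, on either side of LOC_Os06g02810, kept 17.7% and 19.8% in dm_45C and 12.4% and 16.3% in WT_45C. Without a filter the wild type calls of LOC_Os06g02840 (limma adjusted p = 0.0879), LOC_Os06g02680 (limma adjusted p = 0.0515) and LOC_Os06g02770 (limma adjusted p = 0.0592) were lost. The first also lost it without WT_45C replicate 2 or 3 or WT_29C replicate 2, and the next without WT_45C or WT_29C replicate 3. The other 5 loci that fell in both genotypes kept their calls in all settings. The 1 tested locus that rose, LOC_Os06g02870, had 1.42 to 3.94 FPKM in dm_45C and was listed at 0 in all dm_29C libraries. Its wild type call (limma adjusted p = 0.04996) was at the threshold and was lost in 14 of 20 other settings, 5 of the 6 repeats without 1 wild type library among them.

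**Figure D5:**
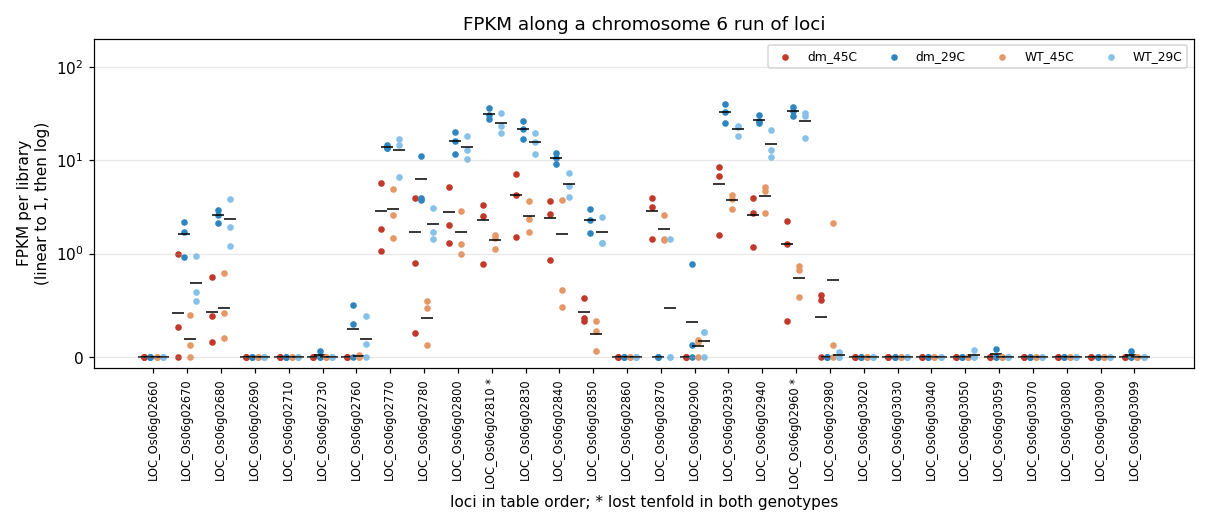
FPKM of the 30 loci in table order around the pair on chromosome 6 (axis linear to 1 and log above), with coloured points for libraries, black bars for group means, and the order dm_45C, dm_29C, WT_45C, WT_29C within each locus; asterisks mark LOC_Os06g02810 and LOC_Os06g02960. Control means of the 7 loci at the control minimum lie between 12.8 and 33.6 FPKM, and their heat means between 0.767 and 5.60 FPKM.

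The pair on chromosome 5 was SWEET3a with LOC_Os05g12400, 6 loci on. LOC_Os05g12400 had 1.22, 1.16 and 0.59 FPKM in dm_45C, against 44.8, 42.6 and 19.8 FPKM in dm_29C, and 1.19, 1.86 and 0.73 FPKM in WT_45C, against 24.0, 38.5 and 54.5 FPKM in WT_29C. It kept 2.77% in dm_45C and 3.23% in WT_45C. Of the 5 loci between them, none was at the control minimum, and of 4 tested loci outside the list in the window, LOC_Os05g12300 fell in both genotypes, LOC_Os05g12410 fell and LOC_Os05g12370 rose in the wild type, and LOC_Os05g12380 did not pass. The wild type calls of LOC_Os05g12410 (without WT_45C replicate 1 or WT_29C replicate 3) and LOC_Os05g12370 (without WT_45C replicate 3 or WT_29C replicate 1) were lost with 1 library less, and the other call of LOC_Os05g12300 without both double mutant replicate 1 libraries (limma adjusted p = 0.0974).

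Neighbours of single loci differed widely. LOC_Os01g68269 had 23.8, 23.6 and 6.01 FPKM in dm_45C, against 245, 336 and 229 FPKM in dm_29C, and 23.9, 19.1 and 14 FPKM in WT_45C, against 281, 269 and 118 FPKM in WT_29C. The next locus, LOC_Os01g68290, had 1333 ± 127 FPKM in dm_45C, against 3.98 ± 1.72 FPKM in dm_29C, and 1362 ± 207 FPKM in WT_45C, against 0.660 ± 0.628 FPKM in WT_29C (SD, n = 3 each), so a nearly lost locus lay directly beside a strongly raised one. The locus after it, LOC_Os01g68300, had 2733 ± 2169 FPKM in dm_45C, against 6189 ± 924 FPKM in dm_29C, and 2229 ± 700.0 FPKM in WT_45C, against 6777 ± 1755 FPKM in WT_29C. Its fall passed in both genotypes (limma adjusted p = 0.0455 with the mutant label and 0.0302 in the wild type) and was lost in 15 and 5 of 21 other settings, among them the repeats without replicate 1 or 3 of dm_45C, any dm_29C library, replicate 1 or 3 of WT_45C, and replicate 1 or 2 of WT_29C.

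Of 6 tested loci in a window of 7 around PIN5a, 2 fell in both genotypes and 1 rose in the libraries labelled double mutant only. Over all loci tested 11.4% fell in both. LOC_Os01g69060 had 13.0 ± 2.93 FPKM in dm_45C, against 46.3 ± 7.94 FPKM in dm_29C, and 11.2 ± 1.86 FPKM in WT_45C, against 57.3 ± 11.3 FPKM in WT_29C (SD, n = 3 each). LOC_Os01g69050 kept 41.7% in dm_45C and 27% in WT_45C. LOC_Os10g42770, beside LOC_Os10g42780, fell by 3.10 in the libraries labelled double mutant (limma adjusted p = 7.85e-04) and by 2.45 in the wild type (limma adjusted p = 0.00364). These neighbours were chosen after their values were seen.

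The genotypes were compared at the 52 loci at 29 °C, at 45 °C and in the size of the heat response. None of the 52 passed in any of the 3 comparisons (limma, all 12 libraries, Benjamini-Hochberg adjustment over 20305 loci). Over all loci 49 passed at 29 °C, or 0.241%, with 40 higher and 9 lower in dm_29C. At 45 °C 4 passed, or 0.0197%, and in the difference of the heat responses 3 passed, or 0.0148%. Unadjusted limma p-values were under 0.05 at 11, 2 and 3 of the 52, against 1985, 1618 and 1039 of all 20305 loci, or 9.78, 7.97 and 5.12%. The share among the 52 was thus higher than over all loci at 29 °C, lower at 45 °C and near it in the difference of the heat responses. These sets are not alike in level, since the 52 all met the control minimum and the 20305 had only to pass the filter. The part of level in these shares was not tested. The standard error of a genotype difference at 1 temperature was 0.41 on the log2 scale at the median locus of the 52. The largest such difference among them, 1.76 at LOC_Os01g50610 at 29 °C, did not pass (limma adjusted p = 0.360).

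At 29 °C the mean of dm_29C was above that of WT_29C at 36 of the 52 loci and below it at 16. The median difference was 0.35 on the log2 scale over the 52 and 0.02 over all loci. Here and at 45 °C the 2 sets are not alike in level. Libraries of the 2 genotypes did not overlap at 12 of the 52, with dm_29C above at 7 and below at 5, and this was so for 14.1% of all tested loci. At 45 °C the mean of dm_45C was above that of WT_45C at 34 of the 52. The median difference was 0.12 over the 52 and 0.06 over all loci. Libraries did not overlap at 3 of the 52, against 13.3% of all tested loci. The rule holds both heat means low, which bears on the 45 °C comparison.

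The lowest adjusted p-values at the 52 loci, chosen after the values were seen, show how far these were from passing. LOC_Os10g36500 was lower in dm_29C than in WT_29C by a log2 difference of -1.14 ± 0.31 (SE, limma adjusted p = 0.247), with an adjusted p between 0.0730 and 0.702 over 21 other settings. All 3 dm_29C libraries lay at or under 87.7 FPKM, and WT_29C replicate 2, at 78.1 FPKM, lay within their range. LOC_Os05g02310 had 29.1, 51.9 and 28.3 FPKM in dm_29C, against 10.6, 26.4 and 13.9 FPKM in WT_29C, a difference of 1.10 (limma adjusted p = 0.304). At 45 °C the lowest was LOC_Os10g34730, at 1.83, 6.05 and 1.24 FPKM in dm_45C, against 0.76, 0.53 and 0.86 FPKM in WT_45C, a difference of 1.05 (limma adjusted p = 0.519). The genotypes did not overlap at the last 2 loci, and neither difference passed. In the heat response LOC_Os10g36500 came first, with a difference of 1.17 (limma adjusted p = 0.932).

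The limits of the rule cut through a continuous range. LOC_Os06g04920, with 9.96% left in WT_45C, and LOC_Os08g07490, with 9.96% in dm_45C and 9.92% in WT_45C, were the last loci inside the loss limit. LOC_Os05g49370, with 7.29% in dm_45C and 10.01% in WT_45C, and LOC_Os01g02790, with 8.17% and 10.3%, were the first outside it. At the control minimum, LOC_Os06g48560 at 10.2 FPKM in dm_29C and LOC_Os12g02980 at 10.3 FPKM in WT_29C were the last inside. LOC_Os03g58290 at 9.31 FPKM and LOC_Os05g12640 at 8.88 FPKM in dm_29C were the first outside, although LOC_Os05g12640 kept 0.300% in dm_45C and 0.501% in WT_45C.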

How the data were processed

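Poly(A) RNA of 12 libraries was sequenced as read pairs of 150 bp with molecular identifiers in the adapters and dUTP in the second strand, per the labels' protocols. The authors deposited 1 FPKM table of 42004 loci by 12 libraries, per the file headers. Per the submitters' processing notes, StringTie 1.3.4d, HISAT2 2.0.4, cutadapt 1.9, UMI-tools, edgeR and DESeq2 were used, in roles and an order that the notes used here leave out. Genome build and annotation: not given in the sources used here. Read counts are not in these values, so sequencing depth is unknown and counting intervals could not be given. The columns of the mutant libraries carry another code than the labels and were assigned as those left over once the wild type columns had a match. Their genotype labels name GRP162, GRP163 or GRP164 by replicate, and the titles, which give 1 line, were used.

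Group means, percentages left and neighbour distances were computed from the deposited FPKM with Python 3.11.15, pandas 2.3.3 and numpy 2.4.6, and plots with matplotlib 3.10.9. Loci with 1 FPKM or more in at least 3 libraries were tested on log2(FPKM + 1), computed here from the deposited values, so a fold change of a low locus is understated. A limma fit with an intensity trend (limma 3.58.1, R 4.3.3) gave each of 4 groups a mean over all 12 libraries, and loci with an adjusted p under 0.05 passed. All 52 loci passed the filter, which the rule on control means makes likely but does not ensure. The fit was tested on simulated data. An exact two-sided permutation test with 3 libraries a group has a smallest p of 0.1 and was not used.

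The 52 loci and all lists were chosen with earlier results of these data known. The lists of type-A response regulators, SWEET, PIN, glutamine synthetase and ACC oxidase genes were written after the 52 were seen. Named in the text are the 10 loci of highest control level, the 10 of largest loss, those in a list or with a RefSeq name, and the nearest loci on both sides of each limit; others are said to be chosen after their values were seen. Names rest on published locus assignments, which were not looked up in an annotation here. They were checked against RefSeq (assembly ASM3414082v1) by symbol and chromosome only: of 190 listed loci 141 had a RefSeq name, 137 of them on the same chromosome. Sequences were not used here.

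Replicate numbers are shared by all groups. Deviations from the group means correlated at 0.106, 0.293 and 0.141 between same-numbered dm_45C and WT_45C libraries, so these count as paired. Each other pair of groups had at least 1 of its 3 values under 0.1, and the highest single value among them was 0.140. The unblocked fit was kept, and the block is an alternative.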

Additional observations from a re-analysis of the deposited data

How the results depend on the processing

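With the replicate block, 0 of the 52 loci passed in any genotype comparison, also when the block was fitted on the 45 °C libraries alone, and 1 locus of the whole table passed at 45 °C and 1 in the difference of the heat responses, so the block changed no call at the 52 loci. The 52 passed at none of 21, 22 and 20 other settings of the 3 comparisons, where the lowest adjusted p of a locus was 0.0730, 0.202 and 0.420.

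The number of loci meeting the rule was 155 with a limit of 20% and 18 with 5%, 54 with group medians, 76 and 37 with control minimums of 5 and 20 FPKM, 70 with libraries rescaled to an equal sum, 48 with median-of-ratios scaling, and 42 to 67 without 1 library. Without both double mutant replicate 1 libraries, a setting chosen after seeing the data, it was 47, of which 45 were among the 52, and 26 of the 52 met the rule in all 12 repeats without 1 library. The median level left was 3.12 to 6.82% in dm_45C and 4.04 to 4.93% in WT_45C without 1 library. Within 5 loci 2 of the 52 lay in neighbour groups, and within 20 loci 8.

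Over the whole table the calls at 29 °C numbered 19 without a filter, 13 with a filter of 5 FPKM, 24 with log2(FPKM + 0.1) and 11 to 64 without 1 library. At 45 °C they numbered 17 without a filter, 2 with a filter of 5 FPKM, 10 without both double mutant replicate 1 libraries, 7 in the fit of the groups compared and 1 to 45 without 1 library, with 45 reached without dm_45C replicate 3. In the difference of the heat responses they numbered 7 without a filter, 0 with a filter of 5 FPKM, 0 with log2(FPKM + 0.1), 1 after rescaling, 0 without both double mutant replicate 1 libraries and 0 to 4 without 1 library. The causes were not tested.

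FPKM without counts leaves the precision of low values unknown, and 1 heat library, dm_45C replicate 2, moves most levels left in its group.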

Other observations

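Just outside the list stood loci that met the 10% limit in 1 genotype only. In the libraries labelled double mutant alone 22 did, and these kept a median of 15.2% in WT_45C, with a range of 10.01 to 47.8% and LOC_Os01g12210 at the top. In the wild type alone 26 did, and these kept a median of 14.9% in dm_45C, with a range of 10.3 to 69.5% and LOC_Os11g02305 at the top. All 22 of the first set were below 50% in the wild type, and 25 of the 26 of the second were below 50% in the libraries labelled double mutant. Together with the 52 this gave 74 loci past the limit in the libraries labelled double mutant and 78 in the wild type.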
